A study of Homo sapiens with 6 samples.

Results

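Target genes of the hypoxia-inducible factors were followed in A-498 cells, an established human line from a renal cell carcinoma, with and without the cytidine analogue zebularine, which inhibits DNA methyltransferases. The set was a list of 36 genes named as hypoxia factor targets. It took every probe set, the group of short array probes read as 1 value, whose annotation gave exactly 1 symbol from that list. This found 61 probe sets for 35 genes, out of 19070 probe sets for 11963 genes with 1 symbol on the array; CA9 was not analysed here.

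Cultures with 1000 µM zebularine (n = 3) were compared with untreated cultures (n = 3), all at 120 h. By the labels, both grew as monolayers in medium with fetal calf serum and were split during that time, and only RNA of high integrity was used. Each of 3 numbered experiments gave 1 zebularine and 1 untreated array of total RNA. No culture had VHL restored, none was kept at low oxygen by the labels, and all cultures were of 1 cell line. The design text gives the purpose as a survey of expression changes under a DNA methyltransferase inhibitor.

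Hypoxia-inducible factors are pairs of an alpha subunit, HIF1A or EPAS1 (HIF-2 alpha), and the partner ARNT. When oxygen is present, the EGLN prolyl hydroxylases mark the alpha subunit, and the VHL protein with elongins B and C, CUL2 and RBX1 attaches ubiquitin to it, so that it is degraded. Most clear cell renal carcinomas lose VHL, which leaves alpha subunits in place at normal oxygen and keeps their targets on, and A-498 is known as a VHL-deficient line. The targets import and break down glucose, signal to vessels, buffer pH, modify collagen and slow mitochondrial respiration.

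The array medians ran from 126.5 to 134.4 signal units with zebularine and from 117.9 to 140.8 without. Both arrays of experiment 3 had lower maxima, 28721 with zebularine and 31176 without, against 66290 to 71174 on the other arrays. Control probe sets at the 3' and 5' ends of ACTB, whose ratio grows with RNA loss or short labelling, differed most in experiment 1: the ratio was 5.25 on the zebularine and 3.10 on the untreated array, against 1.49 to 2.38 on the others. Of 9 renal epithelial markers with a probe set, PAX8, PAX2, CDH6, KRT8 and KRT18 were bright enough to test, while CDH16, LRP2, CUBN and EPCAM were not. CDH6, a cadherin of renal tubules, was the 1 marker called, at 174.5, 102.8 and 209.1 units with zebularine, against 1407, 2209 and 584.4 without. The summed signal of the renal markers was 17264 to 23319 with zebularine and 23499 to 31684 without. Most of that sum was KRT18, at 12161 to 16546 with zebularine and 16347 to 21526 without, followed by KRT8. Both had overlapping groups and were not called (limma, adjusted p = 0.616 and 0.6). PAX2 stood at a log2 difference of -0.09. CUBN, too dim to test, was higher, at 61.7 to 86.0 units with zebularine and 15.2 to 28.3 without. Of 3 leukocyte markers and the 1 erythroid marker (HBB) none could be tested. Leukocyte markers summed to 90.6 to 132.4 units with zebularine and 34.6 to 168.9 without. Endothelial markers summed to 163.1 to 266.2 with zebularine and 188.4 to 218.8 without, with TEK the 1 of 4 tested. Fibroblast markers summed to 441.6 to 719.7 with zebularine and 232.3 to 376.2 without, with COL1A1 the 1 of 4 tested. PECAM1, CDH5, PTPRC and DCN, which define these other cell types, were too dim to test. VHL itself was too dim to test, at 12.4 to 107.3 units with zebularine and 8.8 to 62.8 without. A transcript signal would in any case not show whether VHL protein works, so VHL deficiency was not checked here.

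Core letters of the hypoxia response element, to which these factors bind, are ACGTG and, less strictly, GCGTG. RefSeq (GRCh38.p14) gave windows of 300 bases, from 250 before to 50 after a start site, for 29 of the 35 genes, some with several start sites. The genes shown are P4HA2 and PFKFB3, which passed the blocked test described below, and LDHA, which has the single window with the most ACGTG matches. Capitals mark every ACGTG or GCGTG on either strand, read on the other strand as CACGT or CACGC. In CACGTG both strands match and each is counted.
P4HA2, chr5:132227042-132227341, minus strand: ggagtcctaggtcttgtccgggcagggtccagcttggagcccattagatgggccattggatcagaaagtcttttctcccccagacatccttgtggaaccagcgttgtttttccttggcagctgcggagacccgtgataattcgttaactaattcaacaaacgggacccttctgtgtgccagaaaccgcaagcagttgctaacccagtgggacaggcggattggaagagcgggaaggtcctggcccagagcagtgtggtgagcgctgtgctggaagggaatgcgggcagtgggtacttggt
PFKFB3, chr10:6144671-6144970, plus strand: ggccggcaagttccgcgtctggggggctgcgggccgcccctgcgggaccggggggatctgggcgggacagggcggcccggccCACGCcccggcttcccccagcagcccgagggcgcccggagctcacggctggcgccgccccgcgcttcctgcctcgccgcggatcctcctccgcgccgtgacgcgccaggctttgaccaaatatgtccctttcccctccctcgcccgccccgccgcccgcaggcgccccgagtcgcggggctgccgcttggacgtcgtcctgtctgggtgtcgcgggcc
PFKFB3, chr10:6202682-6202981, plus strand: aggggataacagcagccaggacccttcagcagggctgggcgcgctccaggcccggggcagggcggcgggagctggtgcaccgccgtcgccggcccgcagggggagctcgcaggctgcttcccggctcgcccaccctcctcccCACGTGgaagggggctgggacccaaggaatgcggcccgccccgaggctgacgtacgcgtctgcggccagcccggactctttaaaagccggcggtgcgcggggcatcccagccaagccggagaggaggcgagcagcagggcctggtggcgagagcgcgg
LDHA, chr11:18394313-18394612, plus strand: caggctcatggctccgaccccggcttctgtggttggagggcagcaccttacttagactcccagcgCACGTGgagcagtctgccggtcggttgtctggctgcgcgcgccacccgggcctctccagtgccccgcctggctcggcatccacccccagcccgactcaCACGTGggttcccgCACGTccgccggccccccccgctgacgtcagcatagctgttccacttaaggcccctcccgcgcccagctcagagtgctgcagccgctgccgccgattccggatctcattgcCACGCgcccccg

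The P4HA2 window held 0 matches and 11 CG pairs, the letters that DNA methyltransferases act on. The PFKFB3 windows held 1 GCGTG and 2 ACGTG matches with 42 and 31 CG pairs, and the LDHA window shown 5 ACGTG and 1 GCGTG with 29 CG pairs. A second LDHA window, not shown, held 0 ACGTG and 1 GCGTG with 31 CG pairs. Of the 51 start-site windows of the set, 49.0% held an ACGTG and 78.4% either form, against 21.4% and 48.4% of all 35116 windows of that length. The median number of CG pairs was 24.0 in the set and 14.0 in all windows. Such matches describe the letters only; neither binding nor methylation was measured. No window was used for VEGFA, SLC2A3, CP, NDRG1, BNIP3L or HILPDA.

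The members did not move as a block after zebularine. Of the 35 genes, 31 were bright enough to test, 13 with a positive and 18 with a negative log2 difference (zebularine minus untreated), and the median was -0.05, against -0.01 over all 7939 tested genes. The scale is log2(signal + 16.34), which understates changes of dim genes, and each gene stands for its brightest probe set. A gene was called at an adjusted p under 0.05 in limma, over all 13548 tested probe sets. By that rule 0 of the 31 genes were called and 5 had an unadjusted p under 0.05, against 0.642% called (0.353% higher and 0.29% lower) and 13.1% at the unadjusted level among all tested genes. The 5 were SLC2A1, CXCR4 and P4HA2, higher (6.26% of all tested genes), and PFKFB3 and CP, lower (6.85%). With the experiment number as a block, which compares the arrays within each experiment, limma called 4 of 31, P4HA2 higher and PFKFB3, CP and NDRG1 lower, against 4.45% of all tested genes (2.17% higher and 2.28% lower). The blocked fit gave 13 of 31 genes an unadjusted p under 0.05 (21.3% of all tested genes). Over single probe sets limma called 0 of 55 without the block (0.62% of all tested) and 4 of 55 with it (4.23%). Zebularine and untreated signals did not overlap for 5 of the 31 (18.2% of all tested genes): SLC2A1, HK1 and P4HA2 were higher (9.33%), PFKFB3 and CP lower (8.83%). By sign within each experiment, 4 of the 31 were higher in all 3 experiments (21.5% of all tested genes) and 10 lower in all 3 (22.0%), 14 in either direction (43.5%). The filter on dim probe sets was met on all 6 arrays by 30 of the 31 and on 5 arrays by EDN1. In these bulk samples a lower level in every cell and a smaller share of expressing cells cannot be told apart.

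**Figure D1:**
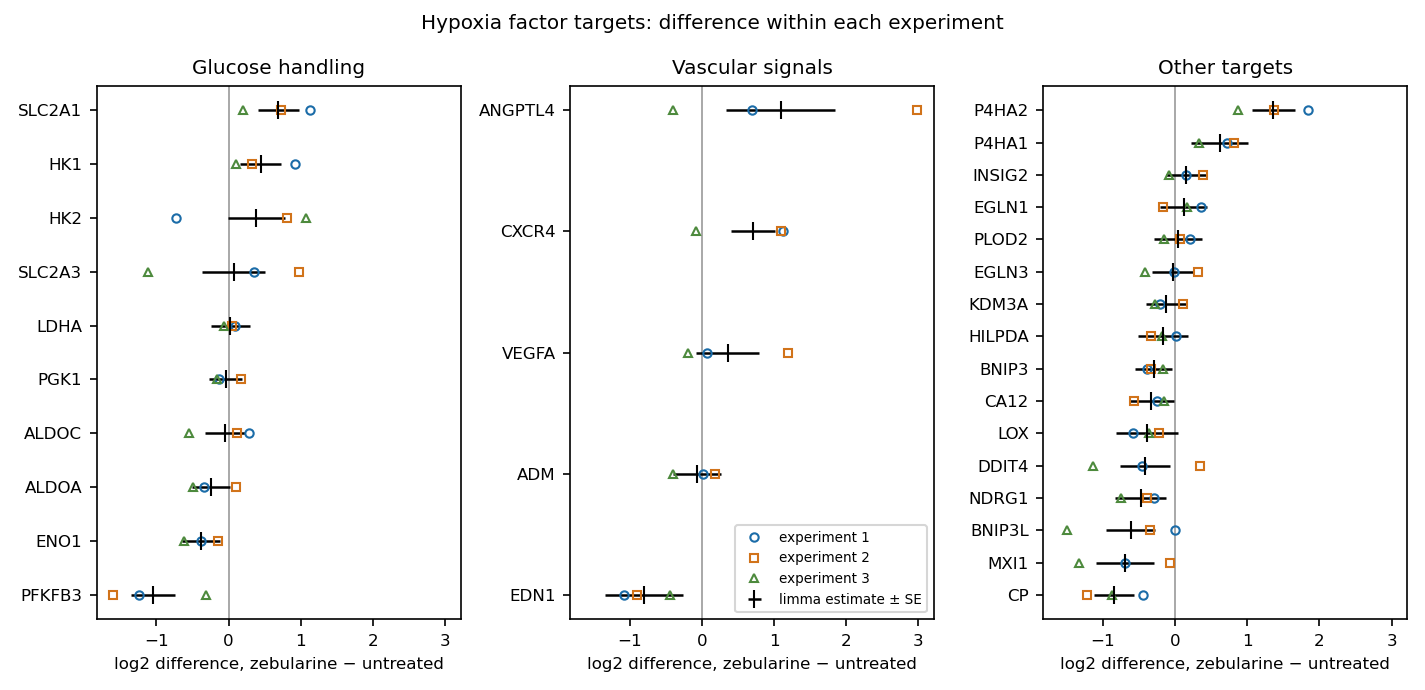
Log2 difference, zebularine minus untreated, of the 31 tested hypoxia factor targets in experiments 1, 2 and 3 (open symbols), with the limma estimate over the 3 experiments and its standard error (black). P4HA2 stood highest at 1.36 and PFKFB3 lowest at -1.05, and the experiments differed in sign for 4 of the 5 vascular signals.

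Among the genes of glucose handling, the fructose-2,6-bisphosphate enzyme PFKFB3, the glucose transporter SLC2A1 and the hexokinase HK1 had non-overlapping groups, in different directions. PFKFB3, which makes the strongest activator of phosphofructokinase, had signals of 510.3, 478.7 and 1067 in zebularine cultures, against 1223, 1479 and 1331 in untreated cultures. All zebularine cultures were lower, the one of experiment 3 least so. Here and below, ± gives the standard error of the fit without the block. The 2.07-fold difference, -1.05 ± 0.31 on the log2 scale, gave an adjusted p of 0.187 in limma without the block and 0.0433 with it (blocked standard error 0.26). That blocked call ended without experiment 1 (limma, adjusted p = 0.21) and without experiment 2 (limma, adjusted p = 0.0918). SLC2A1, the GLUT1 transporter that carries glucose into the cell, had 5058, 3133 and 2417 units in zebularine cultures, against 2294, 1893 and 2098 in untreated cultures. Every zebularine culture lay above every untreated one, most in experiment 1. The log2 difference was 0.69 ± 0.28 (limma, adjusted p = 0.347 without and 0.0847 with the block), and its other probe set gave 0.66. Without experiment 3, where the difference was smallest, the blocked value was 0.93 (limma, adjusted p = 0.0358). Without experiment 1 or 2 it was 0.46 or 0.67 (limma, adjusted p = 0.432 or 0.0994). HK1, a hexokinase that traps glucose as its phosphate, had 1307, 1563 and 1388 units with zebularine, against 683.9, 1244 and 1293 without, a log2 difference of 0.45 ± 0.28 (limma, adjusted p = 0.552). Without the untreated culture of experiment 1 it was 0.16.

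None of the tested enzymes further down the pathway among the members passed the test. LDHA, which turns pyruvate into lactate, had 30921, 30304 and 19973 units with zebularine, against 29047, 29349 and 20847 without. Same-numbered cultures lay close together. The log2 difference was 0.02, with a 95% interval from -0.56 to 0.61 without the block and from -0.20 to 0.25 with it. PGK1, the phosphoglycerate kinase, had 12068, 14623 and 11819 units with zebularine, against 13198, 13007 and 13191 without. It stood at -0.04, with an interval from -0.53 to 0.46 without the block and from -0.32 to 0.24 with it. After quantile normalization between arrays the sign of PGK1 turned, to 0.06. The enolase ENO1 had 8535, 13152 and 8115 units with zebularine, against 11071, 14602 and 12447 without. It was lower in each of the 3 experiments at -0.38 ± 0.26 (limma, adjusted p = 0.588 without and 0.144 with the block), while its dimmest tested probe set gave 0.0051. The aldolases ALDOA and ALDOC stood at -0.24 and -0.05. Probe sets of PGK1, ENO1, LDHA and ALDOA may also bind transcripts of related genes and pseudogenes.

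SLC2A3, the GLUT3 transporter, and the hexokinase HK2 went different ways in different experiments at their brightest probe sets. SLC2A3 differed by 0.36, 0.97 and -1.11 in experiments 1, 2 and 3, and its 3 probe sets by 0.07 to 0.63 over all arrays. The probe set at 0.63 was higher in all 3 experiments, by 1.47, 0.34 and 0.086. HK2 differed by -0.73, 0.81 and 1.08 at its brightest probe set, while its dimmer one gave -1.69 (limma, adjusted p = 0.346). That dimmer probe set had 8.3, 12.1 and 138.3 units with zebularine, against 157.4, 144.3 and 114.0 without. Of the 13 members with several tested probe sets, 9 had 1 sign throughout, and HK2, PGK1, ENO1 and VEGFA did not. PFKFB4, ENO2 and PDK1, the kinase that keeps pyruvate out of mitochondria, were too dim to test; PDK1 had 49.5, 167.9 and 110.9 units with zebularine, against 54.3, 66.5 and 73.3 without. Over the 10 tested member genes of glucose handling the median log2 difference was -0.01, and 0.07 after quantile normalization. That median does not describe the whole pathway. Outside the member set, GPI, PFKL, PFKP, TPI1, GAPDH, PGAM1 and PKM were lower in each experiment at their brightest tested probe sets. They ran from -0.78 (PFKL) to -0.07 (GAPDH), and only PKM was called with the block. Dimmer probe sets of TPI1 (0.11 over all arrays) and GAPDH were not lower in every experiment.

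Of the 5 tested vascular signals, ANGPTL4, VEGFA, CXCR4 and ADM changed sign between experiments at their brightest probe sets, while EDN1 was lower in all 3. The highest untreated culture exceeded the lowest 14.9-fold for ANGPTL4, 4.08-fold for VEGFA and 4.01-fold for EDN1, against 1.91-fold for CXCR4 and 1.79-fold for ADM. ANGPTL4, a secreted inhibitor of lipoprotein lipase, had 4191, 1492 and 1034 units in zebularine cultures, against 2589, 174.2 and 1369 in untreated cultures. The untreated culture of experiment 2 was far below the other untreated ones. The differences were 0.69, 2.99 and -0.40 in experiments 1, 2 and 3, and over all arrays 1.09 ± 0.75 (limma, adjusted p = 0.588). Without the untreated culture of experiment 2 the difference was -0.01. With the block all experiments together gave an adjusted p of 0.191 in limma. Without both arrays of experiment 3, the one of opposite sign, the blocked value was 1.84 (limma, adjusted p = 0.000447). Without experiment 1 or 2 it was 1.29 or 0.15 (limma, adjusted p = 0.327 or 0.782). The lowest of these p-values is weak evidence, as the differences it rests on, 0.69 and 2.99, lay far apart. VEGFA, the main growth factor for vessels, had 13347, 7187 and 6068 units with zebularine, against 12701, 3116 and 6958 without. Again the untreated culture of experiment 2 was the lowest, and the groups overlapped. The log2 difference of 0.36 ± 0.44 (limma, adjusted p = 0.785) had a 95% interval from -0.59 to 1.31, and from -0.13 to 0.84 with the block. The 4 probe sets of VEGFA ran from -0.03 to 0.36.

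CXCR4, the receptor for the chemokine CXCL12, had 8309, 5422 and 4557 units in zebularine cultures, against 3818, 2534 and 4831 in untreated cultures. It was higher in experiments 1 and 2, by 1.12 and 1.09, and not in experiment 3, at -0.08. All 3 probe sets of CXCR4 were positive, from 0.53 to 0.71. The dimmest was higher in each experiment, at 0.52, 1.06 and 0.0025. Its groups did not overlap, by a narrow margin (1450 against 1448 units at the closest). The brightest gave 0.71 ± 0.30 (limma, adjusted p = 0.363 without and 0.099 with the block). Without experiment 3, the one of opposite sign, the blocked value was 1.11 (limma, adjusted p = 0.00285). Without experiment 1 or 2 it was 0.50 or 0.52 (limma, adjusted p = 0.424 or 0.205). EDN1, the vessel-constricting peptide endothelin-1, had 198.9, 51.1 and 214.6 units with zebularine, against 437.0, 108.9 and 296.0 without. It was lower within each experiment, by 1.07, 0.89 and 0.44 on the log2 scale, although the groups overlapped, and the estimate of -0.80 ± 0.54 had an adjusted p of 0.582 in limma (0.156 with the block). It was -0.23 without the zebularine culture of experiment 2 and -1.33 without the untreated one. ADM, the vasodilator adrenomedullin, had 12424, 9904 and 5218 units with zebularine, against 12280, 8732 and 6861 without, a difference of -0.07. EPO, the red cell hormone, was too dim to test.

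**Figure D2:**
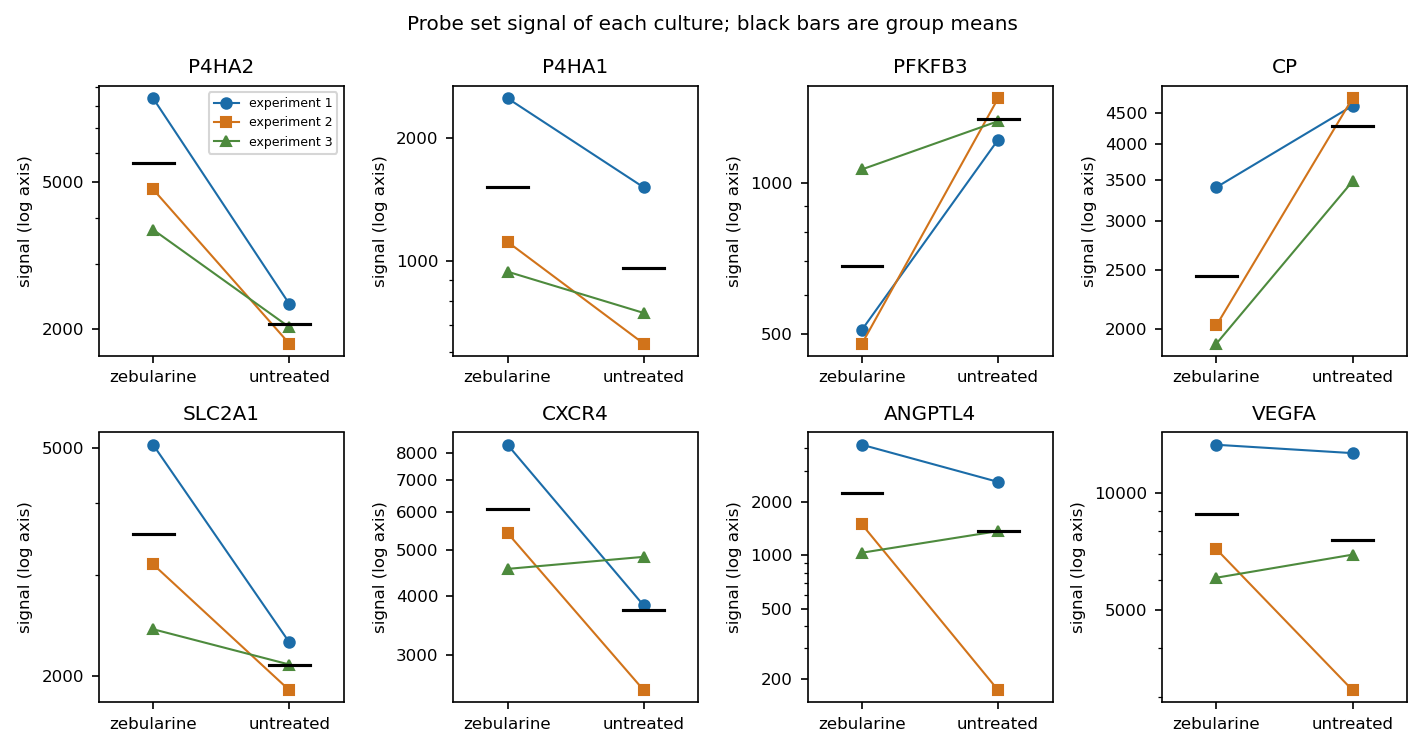
Probe set signal (log axis) of 8 hypoxia factor targets in each culture, zebularine left and untreated right, with lines joining the arrays of 1 experiment and black bars at the group means (n = 3 each). P4HA2 and SLC2A1 lay higher and PFKFB3 and CP lower in all zebularine cultures, while ANGPTL4 and VEGFA were lowest in the untreated culture of experiment 2.

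The collagen prolyl 4-hydroxylase gene P4HA2 showed the largest log2 difference among the brightest probe sets of the 31 tested genes. P4HA2 encodes an alpha subunit of the enzyme that hydroxylates proline in collagen chains, a step needed for a stable triple helix. Its probe set had 8412, 4776 and 3716 units in zebularine cultures, against 2343, 1830.0 and 2028 in untreated cultures. Every zebularine culture was above every untreated one, and the difference was 1.84, 1.38 and 0.87 in experiments 1, 2 and 3. The 2.57-fold difference, 1.36 ± 0.30, just missed the threshold in limma without the block (adjusted p = 0.0698) and passed with it (adjusted p = 0.00475). The blocked call held without each experiment in turn (limma, adjusted p = 0.0377, 0.00306 and 3.02e-05 without experiments 1, 2 and 3). It also held after quantile normalization (limma with the block, adjusted p = 0.00333).

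Other genes of collagen modification did not pass. P4HA1, the other alpha subunit, had 2507, 1117 and 944.3 units with zebularine, against 1518, 629.7 and 748.5 without. It was higher within each experiment, but the spread between experiments exceeded that difference, and the groups overlapped (0.62 ± 0.39; limma, adjusted p = 0.555 without and 0.122 with the block). Without the zebularine culture of experiment 1 it was 0.19, and without the untreated one 0.99. PLOD2, a lysyl hydroxylase of collagen, had 10660, 4858 and 6285 units with zebularine, against 9267, 4647 and 6963 without, a log2 difference of 0.04. The other PLOD2 probe set was higher in each experiment, at 0.32, 0.011 and 0.71. It gave 0.35 (limma, adjusted p = 0.691 without and 0.29 with the block). LOX, which crosslinks collagen and elastin, had 653.6, 246.8 and 409.5 units with zebularine, against 987.9, 290.4 and 530.1 without. At that probe set LOX was lower within each experiment, at -0.39 ± 0.43 (limma, adjusted p = 0.754), and at 0.04 without the untreated culture of experiment 1. The other tested LOX probe set was higher in experiment 2, at 0.50, and gave -0.27 over all arrays.

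Ceruloplasmin (CP) and NDRG1 were the other called members. CP, a copper-carrying ferroxidase, had 3403, 2027 and 1893 units in zebularine cultures, against 4619, 4751 and 3480 in untreated cultures. All zebularine cultures lay below all untreated ones, by 0.44, 1.22 and 0.87 on the log2 scale in experiments 1, 2 and 3. The estimate was -0.84 ± 0.28 (limma, adjusted p = 0.234 without and 0.0314 with the block), and the blocked call ended without experiment 2 (limma, adjusted p = 0.0707) and without experiment 3 (limma, adjusted p = 0.0639). NDRG1, a stress-responsive gene, had 31775, 16212 and 12861 units with zebularine, against 38888, 21174 and 21720.0 without. The groups overlapped, but the zebularine array was lower in each experiment, by 0.29, 0.39 and 0.75. The estimate of -0.48 ± 0.35 gave an adjusted p of 0.618 in limma without the block and 0.0479 with it (blocked standard error 0.12). It was -0.19 without the untreated culture of experiment 1 and -0.86 without the zebularine one. That call ended after quantile normalization (limma with the block, adjusted p = 0.115), without experiment 1 (limma, adjusted p = 0.0684) and without experiment 3 (limma, adjusted p = 0.345).

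The oxygen-sensing feedback genes and the pH enzyme of the set did not pass the test with or without the block. EGLN3, a prolyl hydroxylase that hypoxia factors induce against themselves, had 2591, 1914 and 1478 units with zebularine, against 2606, 1528 and 1979.9 without. The log2 difference was -0.03, with a 95% interval from -0.65 to 0.58 without the block and from -0.48 to 0.41 with it. EGLN1, the main prolyl hydroxylase for HIF alpha subunits, stood at 0.12. CA12, a carbonic anhydrase of the cell surface, had 22648, 11625 and 14033 units with zebularine, against 26944, 17307 and 15619 without. All 6 probe sets of CA12 were negative, from -0.51 to -0.28, and the brightest was lower within each experiment, by 0.25, 0.57 and 0.15. It gave -0.33 ± 0.31 (limma, adjusted p = 0.707 without and 0.16 with the block, blocked 95% interval from -0.60 to -0.06). It was -0.09 without the untreated culture of experiment 1 and -0.60 without the zebularine one.

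Of the mitochondrial and stress genes, most were lower without passing. BNIP3 and BNIP3L, outer membrane receptors for removal of mitochondria, stood at -0.30 and -0.61 (limma, adjusted p = 0.668 and 0.486). At its brightest probe set BNIP3L had 2644, 1413 and 1020 units with zebularine, against 2655, 1796 and 2902 without. The difference at that probe set lay mostly in experiment 3, and without experiment 3 the blocked value was -0.17. Without the zebularine culture of experiment 1 the difference was -0.99. The other BNIP3L probe set was lower in each experiment, at -0.49, -0.45 and -1.44. It gave -0.79 over all arrays (limma, adjusted p = 0.32 without and 0.0744 with the block). MXI1, an antagonist of MYC, had 814.4, 412.9 and 409.4 units with zebularine, against 1327, 432.4 and 1056 without, at -0.70 ± 0.40 (limma, adjusted p = 0.509). DDIT4, an inhibitor of mTOR complex 1, had 6458, 4626 and 4560 units with zebularine, against 8869, 3643 and 10048 without, at -0.42 ± 0.35 (limma, adjusted p = 0.667). Both MXI1 and DDIT4 were lowest among untreated cultures in experiment 2, where they differed by -0.06 and 0.34. Without experiment 2, which ran least in their direction, the blocked values were -1.01 and -0.80 (limma, adjusted p = 0.0279 and 0.0221). With all 3 experiments neither was called (limma with the block, adjusted p = 0.156 and 0.327). The histone demethylase KDM3A, the sterol regulator INSIG2 and the lipid droplet protein gene HILPDA stood at -0.12, 0.16 and -0.17.

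Differences within experiments showed where the set varied. In experiment 3, 6 of the 31 genes were higher with zebularine (9 after quantile normalization), against 15 in experiment 1 and 19 in experiment 2; over all tested genes the share was 48.6% in experiment 1 and 49.7% in experiment 3. Vascular signals had medians of 0.07, 1.09 and -0.39 in experiments 1, 2 and 3. Genes of glucose handling had -0.02, 0.14 and -0.24, and the other targets -0.11, -0.12 and -0.23. Medians over all tested genes were -0.02, 0.00 and -0.00. Over all arrays the vascular median was 0.36, and -0.09 without the untreated culture of experiment 2. That of the other targets was -0.23, with 11 of 16 genes negative, and 0.02 without the untreated culture of experiment 1. Across the 31 genes the differences of experiments 1 and 2 correlated at 0.66, of 1 and 3 at 0.40 and of 2 and 3 at 0.29, against 0.28, 0.43 and 0.29 over all tested genes; genes are not independent replicates, and these values describe the arrays.

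The level of the set also moved with the experiment in both groups. Among zebularine cultures, that of experiment 1 was the highest of the 3 for 22 of the 31 genes and that of experiment 3 the lowest for 21, against 37.5% and 32.9% of all tested genes. Among untreated cultures, that of experiment 1 was the highest for 20 and that of experiment 2 the lowest for 21, against 37.9% and 39.2% of all tested genes. After quantile normalization these counts were 23 and 16 with zebularine and 21 and 24 without. The median SD of log2 signal between the 3 cultures of a group was 0.54 with zebularine and 0.41 without over the 31 genes, against 0.34 in either group over all tested genes. For the 5 tested vascular signals it was 0.65 with zebularine and 0.95 without. The arrays of experiment 1 also had the highest 3' to 5' ratios, and the part of RNA quality in these levels was not tested.

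**Figure D3:**
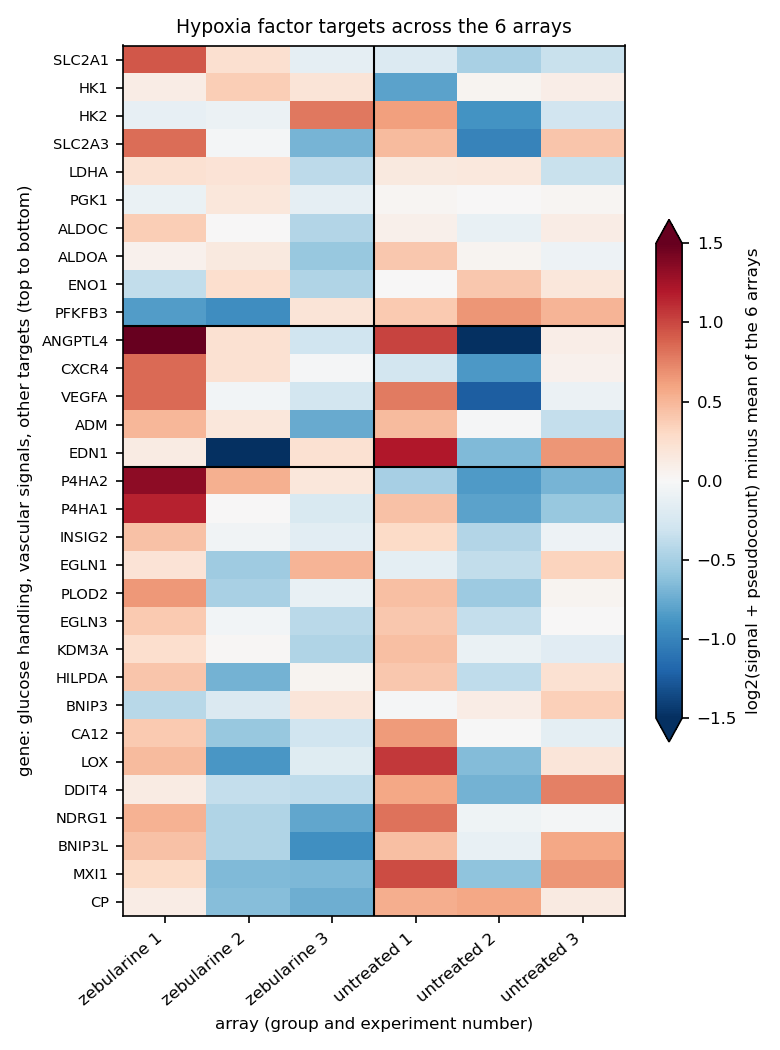
Log2 signal of the 31 tested hypoxia factor targets on each array, as the difference from the gene's mean over the 6 arrays (red above, blue below; colours end at 1.5). Both arrays of experiment 1 are mostly red, the untreated array of experiment 2 is mostly blue, and P4HA2 lies above its mean on all zebularine arrays (left) and below it on all untreated arrays (right).

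The genes that sense oxygen and carry the response did not pass the test. Of 14 listed, 13 had a probe set and 11 could be tested, with 0 called in limma with or without the block; EGLN2 was not analysed here and HIF3A was too dim. At an unadjusted p under 0.05 limma found 1 of the 11 without the block (13.1% of all tested genes) and 4 with it (21.3%). HIF1A had 2716, 5204 and 8675 units with zebularine, against 3517, 7506 and 8262 without, and its level followed the experiment more than the drug. Its log2 difference was -0.28 ± 0.41 (limma, adjusted p = 0.827). EPAS1 had 4397, 2808 and 2325 units with zebularine, against 5790, 2154 and 4143 without, at -0.28 ± 0.35 (limma, adjusted p = 0.794). The dimmer EPAS1 probe set had 141.6, 65.2 and 43.8 units with zebularine, against 301.8, 94.9 and 125.3 without. It was lower in each experiment, at -1.01, -0.45 and -1.24, although the groups overlapped. It gave -0.90 ± 0.52 over all arrays (limma, adjusted p = 0.517 without and 0.23 with the block). ARNT, the partner of HIF1A and EPAS1, and its paralogue ARNT2 stood at -0.18 and -0.34, and the coactivators EP300 and CREBBP at 0.13 and 0.12. HIF1AN, the asparagine hydroxylase that blocks coactivator binding, had 175.4, 198.7 and 210.2 units with zebularine, against 321.5, 306.3 and 236.9 without, at -0.52 ± 0.29 (limma, adjusted p = 0.496). These groups did not overlap, with HIF1AN lower, as for 8.83% of all tested genes. The other HIF1AN probe set had overlapping groups, was higher in experiment 2 and gave -0.15.

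At their brightest probe sets, the 4 tested subunits that form the ligase with VHL were higher within each experiment; 21.5% of all tested genes were higher in all 3 experiments. CUL2, the scaffold, had 619.8, 803.6 and 625.6 units in zebularine cultures, against 417.0, 500.6 and 444.1 in untreated cultures, groups that did not overlap. Its log2 difference was 0.57 ± 0.25 (limma, adjusted p = 0.381 without and 0.17 with the block), and its dimmer probe set gave -0.12. ELOC stood at 0.45, RBX1 at 0.43 and ELOB at 0.33, each with overlapping groups and none called. The other tested probe set of ELOB gave -0.31 and was lower in experiments 1 and 2, and that of ELOC gave 0.24 and was lower in experiment 1. These 4 were singled out after their values were seen.

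**Figure D4:**
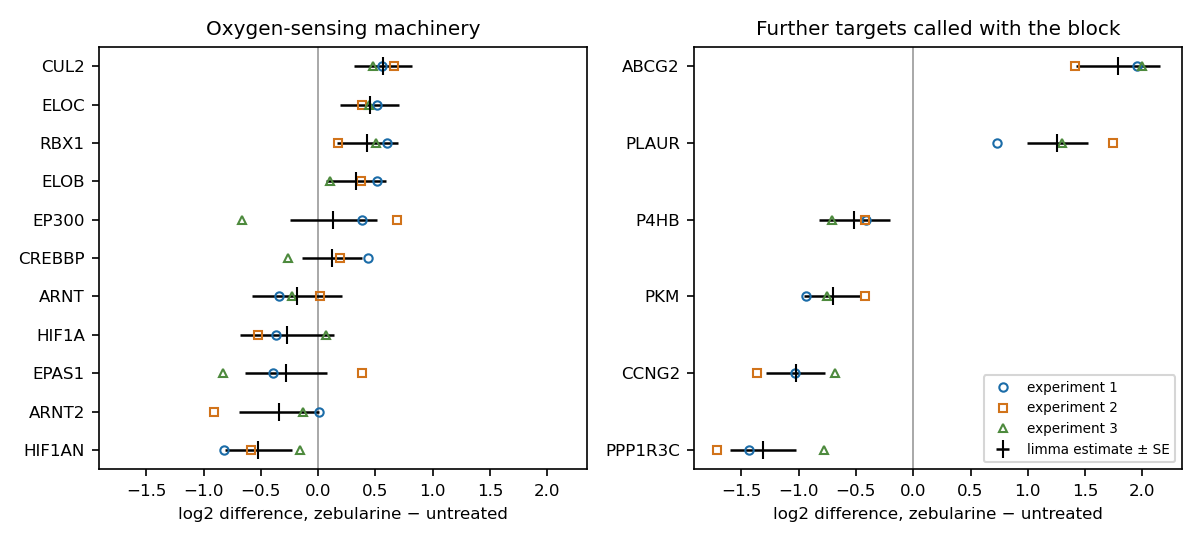
Log2 difference, zebularine minus untreated, within experiments 1, 2 and 3 (open symbols) and as the limma estimate with its standard error (black), for 11 oxygen-sensing genes (left) and for the 6 further hypoxia targets called with the block (right). At the brightest probe sets plotted, CUL2, ELOC, RBX1 and ELOB lay above 0 in all 3 experiments without being called, ABCG2 and PLAUR were higher, and PPP1R3C, CCNG2, PKM and P4HB lower.

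Of 60 further genes known to respond to hypoxia, 54 had a probe set and 48 could be tested. Limma called 1 of the 48 without the block, ABCG2, against 0.642% of all tested genes. With the block it called 6 of the 48, against 4.45%, of which 2 were higher (2.17%) and 4 lower (2.28%). This list was chosen with earlier results of these data known, so these shares cannot show an excess of hypoxia genes. ABCG2, a drug efflux transporter, rose: it had 355.6, 601.5 and 532.2 units in zebularine cultures, against 79.9, 215.3 and 120.9 in untreated cultures. The difference of 1.79 ± 0.36 had an adjusted p of 0.0482 in limma (0.00482 with the block). Its unblocked call ended in limma without the zebularine array of experiment 2 (adjusted p = 0.26) or 3 (adjusted p = 0.143), without the untreated array of experiment 1 (adjusted p = 0.151) or 3 (adjusted p = 0.174), and after quantile normalization (adjusted p = 0.0645). PLAUR, the urokinase receptor, had 1448, 1681 and 1546 units with zebularine, against 868.1, 490.4 and 619.0 without (1.26 ± 0.27; limma, adjusted p = 0.0573 without and 0.0141 with the block), and its second brightest probe set was called without the block (1.54; limma, adjusted p = 0.0295).

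The 4 that fell with the block serve glycogen, the cell cycle, glycolysis and collagen. PPP1R3C, which targets a phosphatase to glycogen, had 298.5, 228.9 and 463.1 units with zebularine, against 836.3, 789.4 and 805.4 without, a difference of -1.31 ± 0.29 (limma, adjusted p = 0.0698 without and 0.0146 with the block). CCNG2, an atypical cyclin of arrested cells, had 323.1, 300.4 and 356.1 units with zebularine, against 679.0, 796.5 and 580.0 without, at -1.02 ± 0.26 (limma, adjusted p = 0.105 and 0.0341). Neither pair of groups overlapped. PKM, the pyruvate kinase, had 5107, 5073 and 4099 units with zebularine, against 9798, 6788 and 6925 without, at -0.70 ± 0.25 (limma, adjusted p = 0.263 and 0.0308). P4HB, the protein disulfide isomerase that is also the beta subunit of collagen prolyl 4-hydroxylase, had 15845, 8632 and 8578 units with zebularine, against 21092, 11572 and 14038 without. Its groups overlapped and it was lower within each experiment, in the direction opposite to its partner P4HA2. The difference was -0.51 ± 0.31 (limma, adjusted p = 0.53 without and 0.046 with the block, blocked standard error 0.13). It was -0.27 without the untreated culture of experiment 1 and -0.81 without the zebularine one. Further probe sets of P4HB, PKM and CCNG2 were also lower but were not called with the block. That of P4HB gave -0.32 (limma with the block, adjusted p = 0.275) and that of PKM -0.47 (adjusted p = 0.343). Those of CCNG2 gave -0.78 and -0.64 (limma with the block, adjusted p = 0.0993 and 0.24). The blocked calls of PPP1R3C, CCNG2, PKM and P4HB all ended without experiment 1 (limma, adjusted p = 0.089, 0.157, 0.18 and 0.112). Those of PKM and P4HB also ended without experiment 3 (limma, adjusted p = 0.0957 and 0.291), that of CCNG2 without experiment 2 (limma, adjusted p = 0.0665), and that of P4HB after quantile normalization (limma with the block, adjusted p = 0.0767).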

How the data were processed

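RNA of 6 A-498 cultures was hybridised to 1-colour arrays with 22277 probe sets. The deposited intensity of each probe set is a linear MAS5 signal, per the submitters' processing notes; the scaling target is not given in the sources used. Of the probe sets, 62 are controls, 19070 have 1 symbol in the platform annotation, 1043 several and 2164 none listed. Probe sets that reached 78.5 units (the 40th percentile) on at least 3 of 6 arrays were tested (13548; 8667 were too dim). Values were log2(signal + 16.34), the pseudocount being the median of all values divided by 8. Two-sided limma tests (version 3.58.1, R 4.3.3, with a trend of variance on mean) gave p-values that were adjusted by Benjamini-Hochberg across the 13548 probe sets, with a threshold of 0.05. The fit was first checked on simulated data. A 2-group comparison of 3 and 3 arrays limits precision, and arrays are separate samples labelled biological replicates.

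The labels give same-numbered arrays the same experiment name. Their deviations from the group means correlated at 0.323, 0.211 and 0.272 for experiments 1, 2 and 3. The blocked fit is therefore also printed, in particular where it changes a call. All pairings of different numbers were negative, but deviations cancel out within a group. Positive same-number values force the others down on balance, so that order is not separate support for the pairing. Members and lists were chosen with earlier results of these data known, so their shares beside those of all tested genes are descriptions only. All members were named, with full statistics for those called and for the 4 of each class with the smallest unadjusted p. Oxygen-sensing genes were all named. Further targets were named where called, along with the other tested glycolytic enzymes among them. Alternatives were the block, other pseudocounts and filters, quantile normalization, no trend, the mean of a gene's probe sets, and arrays left out; quantile normalization with the block was added after seeing the data. Promoter letters came from RefSeq. Figures were drawn with matplotlib 3.10.9.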

Additional observations from a re-analysis of the deposited data

How the results depend on the processing

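Over all probe sets limma called 84, and 42 without the filter, 6 without the mean-variance trend, 55 with the smaller pseudocount, 573 with the replicate block and 593 with quantile normalization and the block. Leaving out 1 array gave 0 to 96 calls, and the blocked fit gave 195, 1024 and 335 without experiments 1, 2 and 3. A blocked fit without 1 experiment has few arrays and leans on the variance of other genes. Its p-values show how far a result depends on that experiment and are not separate evidence for a change. Of the member genes 0 were called, 4 with the replicate block and 3 with quantile normalization and the block, and 2, 4 and 5 in the blocked fit without experiments 1, 2 and 3. For the member probe sets these counts were 0, 4 and 3, and 2, 5 and 5. Signs turned for HK2 (-0.65), PGK1 (0.026), ARNT (0.18) and EP300 (-0.22) with the mean of a gene's probe sets, and for PGK1 (0.062) after quantile normalization with or without the block. In the blocked fit they turned without experiment 1 for SLC2A3 (-0.071), PGK1 (0.0052), LDHA (-0.0078), EGLN1 (-0.00018), PLOD2 (-0.042), CREBBP (-0.033), without experiment 2 for SLC2A3 (-0.38), VEGFA (-0.063), EP300 (-0.14), and without experiment 3 for ALDOC (0.20), PGK1 (0.020), ADM (0.099), EGLN3 (0.16). Leaving out 1 array at a time turned further signs, with values of ADM from -0.33 to 0.30, ALDOC from -0.25 to 0.16, ANGPTL4 from -0.013 to 1.87, EGLN1 from -0.11 to 0.42, EGLN3 from -0.24 to 0.16, EP300 from -0.22 to 0.48, EPAS1 from -0.67 to 0.035 and HIF1A from -0.68 to 0.16. Those of the others ran for HILPDA from -0.42 to 0.14, INSIG2 from -0.027 to 0.34, KDM3A from -0.28 to 0.074, LDHA from -0.14 to 0.23, LOX from -0.81 to 0.043, PGK1 from -0.14 to 0.017, PLOD2 from -0.28 to 0.29, SLC2A3 from -0.41 to 0.44 and VEGFA from -0.17 to 0.84. The cause was not tested. Among the 48 followed genes the block changed no call other than those given beside the genes above. At the brightest probe sets the blocked adjusted p in limma was 0.281 for HK1 and 0.366 for LOX. It was 0.378 for HIF1A, 0.508 for EPAS1 and 0.306 for HIF1AN. Low signals limit PFKFB4, ENO2, PDK1, EPO, VHL and HIF3A, which have no test.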

Other observations

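Probe sets annotated to both SLC2A14 and SLC2A3, left out of the member set, differed between experiments like the main SLC2A3 probe set. The first of these had 439.3, 471.3 and 282.9 units in the zebularine cultures of experiments 1, 2 and 3, against 343.6, 195.5 and 362.9 in untreated cultures. The other had 557.6, 482.2 and 233.5 units with zebularine, against 443.1, 182.8 and 482.7 without. Both were higher with zebularine in experiments 1 and 2 and lower in experiment 3. EPO, too dim to test, had 58.5, 141.4 and 36.2 units with zebularine at its brighter probe set, against 39.7, 114.2 and 43.6 without. PFKFB4 had 16.7, 22.4 and 10.9 units with zebularine, against 74.4, 20.2 and 8.8 without. ENO2 had 101.8, 14.1 and 54.6 units with zebularine, against 12.4, 44.4 and 11.8 without.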
